A study of Mus musculus with 37 samples.

Results

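The proteasome genes examined here were the 44 genes whose symbols begin with Psm followed by a letter from a to g and a number, without Psmb8 and Psmb9, that held at least 100 counts over all 37 libraries, of 57180 genes in the count tables. The pattern matched 48 symbols, and 46 remained without Psmb8 and Psmb9. Psma8 and Psmb11 fell under the minimum, with 84 and 57 counts, while the members closest above it, Psmg4 and Psmg3, held 6960 and 7312. The 44 members comprised 7 subunits of the alpha ring and 8 of the beta ring of the 20S core, 17 subunits of the 19S cap, 7 assembly factors, and 5 activators and inhibitors.

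The study sequenced mRNA bound to GFP-tagged ribosomes of the ventral midbrain, 1 library per mouse. DAT;NuTRAP mice carried the Cre-dependent NuTRAP transgene, a GFP fusion of ribosomal protein L10a, together with a Cre driver at the dopamine transporter gene, and they gave 9 old libraries (4 females, 5 males) and 10 young libraries (5 females, 5 males). VGAT;NuTRAP mice carried the same transgene with a Cre driver at the vesicular GABA transporter gene and gave 8 old libraries (5 females, 3 males) and 10 young libraries (6 females, 4 males). Old mice were 21 months of age, except for 1 VGAT;NuTRAP female of 24 months, and young mice were 7 to 10.5 months. Both models thus carried the transgene and a Cre driver, and by genotype they differed in the driver, which acts wherever and whenever its gene is expressed. Their make-up by sex, exact age and batch was not the same either. The labels also name a first and a second batch, with 11 second-batch and 8 first-batch DAT;NuTRAP libraries, against 12 second-batch and 6 first-batch VGAT;NuTRAP libraries. The labels do not say what a batch is or whether the batches of both models are the same ones.

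The proteasome is the protease that degrades most ubiquitin-tagged proteins in the cytosol and nucleus. Its 20S core is a barrel of alpha rings, which gate the entrance, and beta rings, which hold the proteolytic sites. The 19S cap binds ubiquitin chains, removes them, and unfolds and translocates the substrate with a ring of ATPases. Other caps can take its place: Psme1 and Psme2 encode the alpha and beta chains of PA28, an activator induced by interferon-gamma and linked to the production of peptides for antigen presentation, and Psme4 encodes the large single-chain activator PA200. When proteasome activity drops, the transcription factor Nfe2l1 is known to induce many subunit genes together through antioxidant-type elements in their promoters. Dopamine neurons of the midbrain are lost in Parkinson's disease, in which failing protein clearance has long been studied.

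The promoters of 4 genes are shown because the results turn on them: Psme1 and Psme2 were higher in DAT;NuTRAP in both batches, Psmb6, a catalytic subunit, was called higher over all and in second-batch libraries but not in first-batch libraries, and Psme4 was called lower. Each window runs from 250 bases before to 50 bases after the transcription start in RefSeq (table built on GRCm38.p6), was matched exactly to GRCm39, and is written 5′ to 3′ on the strand of the gene. Capitals mark an antioxidant-type element (TGACNNNGC) in Psmb6 and Psme4 and an interferon-type element (GAAA, any 2 bases, then GAAA again) in Psme1, both searched on either strand. The windows lie at chr14:55815701-55816000 (plus strand, Psme1), chr14:55828509-55828808 (minus strand, Psme2), chr11:70415933-70416232 (plus strand, Psmb6) and chr11:30721525-30721824 (plus strand, Psme4). A second window of Psme2 in the table, with another start, is not shown.
Psme1: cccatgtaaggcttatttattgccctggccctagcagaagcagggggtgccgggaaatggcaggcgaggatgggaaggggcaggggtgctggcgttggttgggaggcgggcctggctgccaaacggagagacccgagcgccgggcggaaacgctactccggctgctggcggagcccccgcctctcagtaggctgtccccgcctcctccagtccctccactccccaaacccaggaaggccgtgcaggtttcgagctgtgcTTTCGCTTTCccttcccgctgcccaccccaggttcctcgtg
Psme2: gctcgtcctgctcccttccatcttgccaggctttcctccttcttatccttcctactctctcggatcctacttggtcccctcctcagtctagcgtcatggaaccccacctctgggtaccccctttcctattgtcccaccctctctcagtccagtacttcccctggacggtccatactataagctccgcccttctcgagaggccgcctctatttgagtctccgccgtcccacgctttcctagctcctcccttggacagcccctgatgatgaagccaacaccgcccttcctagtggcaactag
Psmb6: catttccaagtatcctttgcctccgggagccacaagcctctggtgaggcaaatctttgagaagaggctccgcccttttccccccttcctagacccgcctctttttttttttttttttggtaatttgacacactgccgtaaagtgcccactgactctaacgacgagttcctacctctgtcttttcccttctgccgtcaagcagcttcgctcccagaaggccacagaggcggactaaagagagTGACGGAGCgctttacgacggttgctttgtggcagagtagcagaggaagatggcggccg
Psme4: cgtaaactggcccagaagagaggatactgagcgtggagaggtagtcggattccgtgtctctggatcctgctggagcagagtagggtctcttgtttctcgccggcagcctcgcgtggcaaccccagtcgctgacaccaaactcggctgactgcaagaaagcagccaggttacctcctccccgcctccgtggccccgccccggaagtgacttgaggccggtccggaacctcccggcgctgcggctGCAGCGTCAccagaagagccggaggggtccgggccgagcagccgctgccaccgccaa

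Of the 44 members, 37 had a promoter in the RefSeq table. The antioxidant-type element was found in 6 of these 37 (16.2%), including 2 of 12 core subunits, Psmb5 and Psmb6, against 12.4% of all 32851 promoter windows. The interferon-type element was found in 5 of 37 (13.5%; Psme1, Psmb3, Psmd4, Psmg4 and Psmd9), against 3.44% of all windows, and the CCAAT box (CCAAT) in 12 of 37 (32.4%), against 37.4%. Some genes have more than one window, so that these shares are not over the same unit. A match is a stretch of letters and does not show that a factor binds there.

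Libraries held 13841253 to 38235015 counts, and every member passed the filter on low counts in all comparisons. Second-batch DAT;NuTRAP libraries detected fewer genes (14323 to 18170) than first-batch DAT;NuTRAP libraries (19085 to 21051), whereas second-batch VGAT;NuTRAP libraries (18485 to 21803) overlapped with first-batch VGAT;NuTRAP libraries (19482 to 21176). The defining genes of the labelled cell types differed as labelled: all 11 dopamine neuron markers were called higher in DAT;NuTRAP, with Th at log2 3.28 ± 0.12 (SE, adjusted p = 1.27e-22, edgeR), and 9 of 10 GABA neuron markers were called lower, with Gad1 at −3.85 ± 0.11 (adjusted p = 9.73e-27). Levels are given as CPM, the counts of a gene relative to the library total after scaling with TMM factors, fold changes are log2 of DAT;NuTRAP over VGAT;NuTRAP or of old over young with their SE, and a gene is called at a Benjamini-Hochberg adjusted p below 0.05 over all genes in edgeR's quasi-likelihood test.

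First, the models were compared, to ask whether proteasome mRNA on tagged ribosomes differs between dopamine and GABA neurons. Over all libraries, 36 of 44 members were called, 32 of them higher and 4 lower in DAT;NuTRAP, with a median log2 fold change of 0.33. Among all 16898 genes tested 60.5% were called, 30.0% higher and 30.4% lower, with a median of 0.01. The difference was not the same in both batches, however. In second-batch libraries 34 members were called higher and 4 lower (median 0.46, with −0.02 over all genes; 26.4% of all genes were higher and 30.3% lower), and in first-batch libraries 4 were called higher and 5 lower (median −0.00, with 0.00 over all genes; 21.5% of all genes were higher and 22.4% lower). Only Psme1 and Psme2 were called, in the same direction, under each of the 54 alternatives to the model fit, and they are described first. Because ribosome-bound RNA is pooled from all tagged cells of a dissection, fewer cells of a type and less RNA per cell cannot be told apart in any of these values.

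Psme1 ranged from 98.0 to 131 CPM (median 109) in second-batch DAT;NuTRAP libraries, against 37.3 to 53.6 CPM (median 45.3) in second-batch VGAT;NuTRAP libraries. In first-batch libraries it ranged from 71.3 to 91.6 CPM (median 77.8) in DAT;NuTRAP and from 36.8 to 52.2 CPM (median 42.9) in VGAT;NuTRAP. Every DAT;NuTRAP library was above every VGAT;NuTRAP library, in either batch and in both ages. The fold change was 1.12 ± 0.06 over all libraries (adjusted p = 1.78e-19), with 1.25 ± 0.06 in second-batch and 0.85 ± 0.08 in first-batch libraries.

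Psme2, its partner chain, ranged from 45.6 to 82.5 CPM (median 62.5) in second-batch DAT;NuTRAP libraries, against 20.7 to 24.0 CPM (median 23.3) in second-batch VGAT;NuTRAP libraries. The first-batch values were 36.8 to 49.9 CPM (median 44.2) in DAT;NuTRAP and 19.7 to 29.8 CPM (median 24.4) in VGAT;NuTRAP. The groups did not overlap here either, and Psme1 and Psme2 were the only 2 members whose libraries were fully apart over both batches. Among 44 members that is a share near the 3.37% of all genes in that direction. The fold change of Psme2 was 1.23 ± 0.08 (adjusted p = 5.98e-17), with 1.42 ± 0.08 in second-batch and 0.84 ± 0.11 in first-batch libraries. The difference was larger in the second batch, by 0.61 for Psme2 (adjusted p = 0.000294) and by 0.43 for Psme1 (adjusted p = 0.000861). The exons of Psme1 overlap those of Emc9, and those of Psme2 overlap Rnf31, on the other strand, and whether counting used the strand is not stated.

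**Figure D1:**
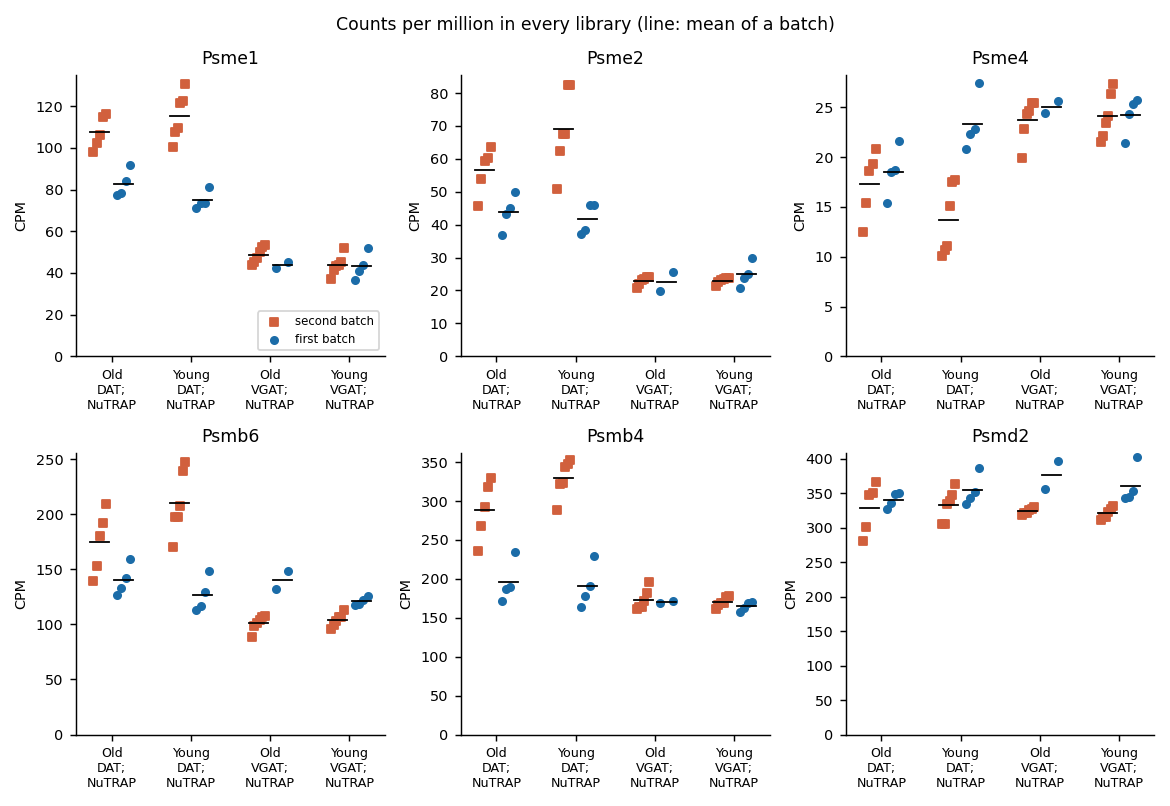
CPM (y axis, from 0) of 6 proteasome genes in each of 37 libraries, by model and age, with squares for second-batch and circles for first-batch libraries and a line at the mean of each. Psme1 and Psme2 are higher in every DAT;NuTRAP than in every VGAT;NuTRAP library, Psmb6 and Psmb4 are apart between the models in second-batch libraries and overlap in first-batch libraries, Psme4 is lower in DAT;NuTRAP with overlap, and Psmd2 overlaps throughout.

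The other activators and the inhibitor differed among themselves. Psme4 had 10.1 to 20.8 CPM (median 15.4) in second-batch DAT;NuTRAP libraries and 19.9 to 27.3 CPM (median 24.2) in second-batch VGAT;NuTRAP libraries. In first-batch libraries it had 15.4 to 27.4 CPM (median 21.2) in DAT;NuTRAP and 21.4 to 25.7 CPM (median 24.9) in VGAT;NuTRAP, so that the groups overlapped. It was called lower over all libraries (−0.49 ± 0.09, adjusted p = 1.28e-05), in second-batch libraries (−0.66) and in first-batch libraries (−0.25, adjusted p = 0.0368), and over all libraries it was the most negative value among the members. With the trend over coding length taken out, as described with the coding lengths, its call was lost (−0.11 ± 0.09, adjusted p = 0.302), and its 5529 coding bases are the most of any member. Psmf1, an inhibitor that binds the core, was called higher in second-batch libraries (0.43) and in first-batch libraries (0.18). Psme3, which encodes the nuclear activator PA28-gamma, was not called over all libraries (−0.06 ± 0.04, adjusted p = 0.185), although its −0.14 in second-batch libraries was, and with the length trend taken out it was called lower (−0.27, adjusted p = 1.35e-07).

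The induced catalytic subunits that the selection rule leaves out were called higher as well. Psmb8 stood at 0 to 13.7 CPM (median 3.78) in second-batch and 0.897 to 4.43 CPM (median 2.90) in first-batch DAT;NuTRAP libraries, against 0.260 to 1.38 CPM (median 0.781) and 0.264 to 1.93 CPM (median 0.887) in VGAT;NuTRAP libraries of the same batches. Its fold change was 2.20 ± 0.35 (adjusted p = 8.52e-07) and that of Psmb9 2.56 ± 0.69 (adjusted p = 0.00134), at levels that overlapped, with Psmb9 at 0 counts in 8 libraries and Psmb8 in 1. With Tap1, Tap2, Tapbp and Erap1, which load peptides for presentation, 6 of 6 genes of this list were called higher (median 1.35), with 6 of 6 in second-batch and 4 of 6 in first-batch libraries. Psmb10, the third induced catalytic subunit and a member here, was higher in second-batch libraries (0.87 ± 0.07) and not in first-batch libraries (−0.03 ± 0.09, adjusted p = 0.821).

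Markers of other cells moved with the models too. Endothelial markers were called higher in DAT;NuTRAP for 10 of 10 genes in either batch, with summed levels of 86.2 to 284 CPM and 35.8 to 69.1 CPM in second-batch DAT;NuTRAP and VGAT;NuTRAP libraries, and 57.6 to 195 CPM and 36.5 to 72.7 CPM in the first batch. Astrocyte markers were called higher for 15 of 15 genes in second-batch libraries (summed 1007 to 1994 CPM in DAT;NuTRAP, 378 to 675 CPM in VGAT;NuTRAP) and for 13 of 15 in first-batch libraries (644 to 1386 CPM and 261 to 407 CPM). Oligodendrocyte markers were called higher for 11 of 12 in second-batch libraries (summed 1183 to 2469 CPM in DAT;NuTRAP, 281 to 1058 CPM in VGAT;NuTRAP) but for 2 of 12 in first-batch libraries (539 to 809 CPM and 386 to 737 CPM). Microglia markers were called higher for 1 of 15 in either batch, with overlapping sums of 59.3 to 180 CPM in DAT;NuTRAP and 24.0 to 225 CPM in VGAT;NuTRAP libraries of the second batch, and 54.8 to 122 CPM and 29.7 to 124 CPM in the first. No astrocyte marker was at 0 in any library. Emcn, Opalin and Aspa and 7 of the microglia markers were at 0 counts in 1 to 5 libraries. The part of these cells in the levels of Psme1, Psme2 and the induced subunits was not tested.

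In the 20S core the difference depended on the batch. All 15 subunits were called higher in DAT;NuTRAP over all libraries, with a median of 0.49 (from 0.12 in Psma6, whose call was lost in 36 of 54 alternatives, to 0.70 in Psma4), and all 15 were called in second-batch libraries (median 0.76, from 0.22 in Psma6 to 0.99 in Psmb1). In first-batch libraries 1 of 15 was called, Psma4 (0.23 ± 0.08, adjusted p = 0.0274), and the median was 0.03. Of all genes, 30.0% were called higher over all libraries, 26.4% in second-batch and 21.5% in first-batch libraries. In the fit with a batch term for each model, the contrast between batches, which was added after the data were seen, was itself called for 15 of 15 core subunits, all larger in the second batch (median 0.64), against 12.7% of all genes. Of the 15, 13 had no overlap between the models within second-batch libraries and none within first-batch libraries, against 9.17% and 9.84% of all genes.

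The summed 20S level was 1722 to 2492 CPM (median 2237) in second-batch DAT;NuTRAP libraries, against 1265 to 1453 CPM (median 1303) in second-batch VGAT;NuTRAP libraries. In first-batch libraries it was 1568 to 1942 CPM (median 1626) in DAT;NuTRAP and 1468 to 1721 CPM (median 1590) in VGAT;NuTRAP. The models were fully apart in the second batch and overlapped in the first. Between batches, second-batch libraries were above first-batch libraries in DAT;NuTRAP (12 of 15 core subunits called higher, median 0.38, against 17.3% of all genes) and below them in VGAT;NuTRAP (11 of 15 called lower, median −0.32, against 6.08% of all genes). Markers of other cells moved between the same batches: in DAT;NuTRAP 10 of 12 oligodendrocyte markers (median 1.50) and 10 of 15 astrocyte markers (median 0.56) were called higher in second-batch than in first-batch libraries, while in VGAT;NuTRAP 0 of 12 (median −0.16) and 2 of 15 (median −0.05) were. Their part in the core values was not tested. The mice, their handling and the sequencing of a batch cannot be told apart here, and the part of the lower number of detected genes in second-batch DAT;NuTRAP libraries was not tested.

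**Figure D2:**
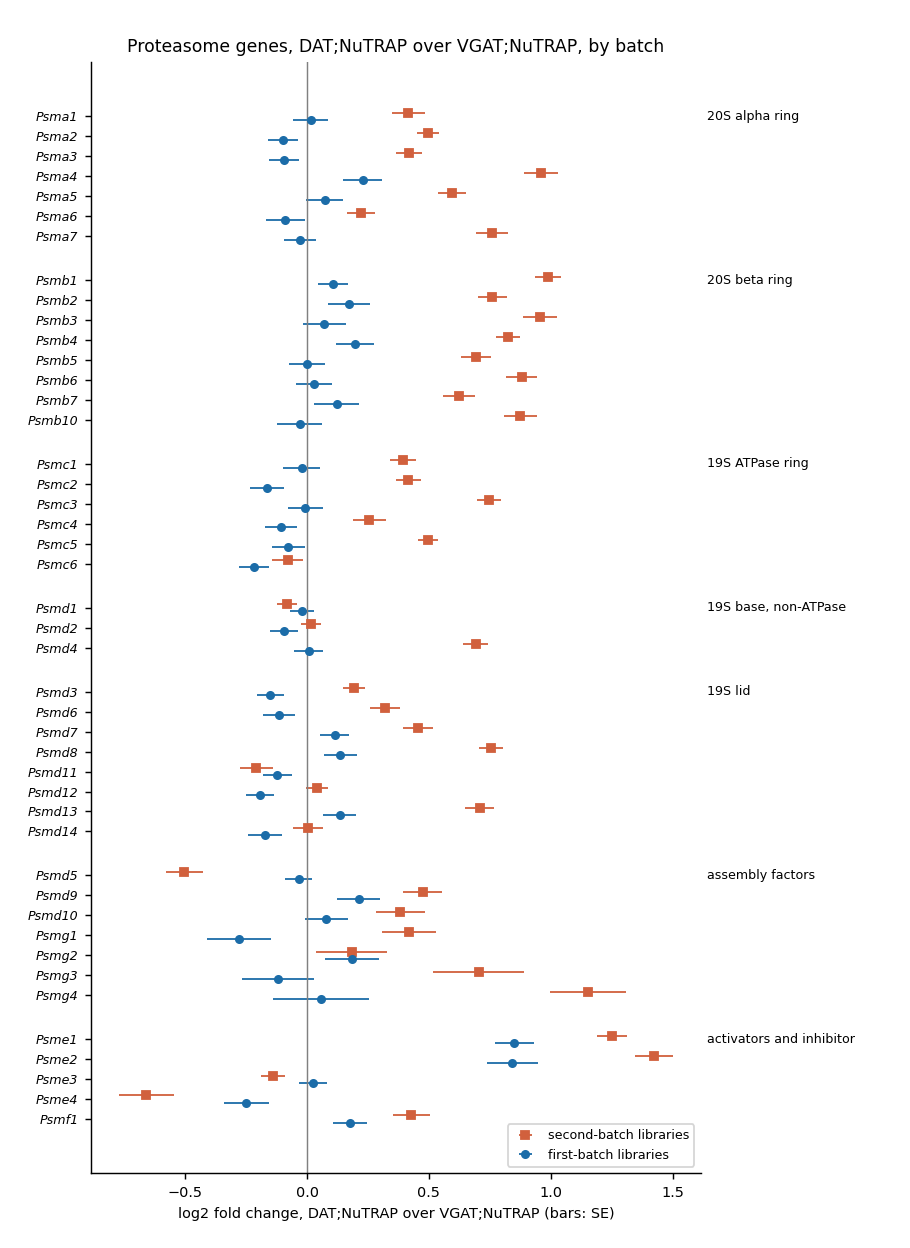
Log2 fold change of DAT;NuTRAP over VGAT;NuTRAP (x axis, bars 1 SE) for all 44 members, ordered by role, with squares for second-batch and circles for first-batch libraries. In second-batch libraries all 15 core subunits lie right of 0, whereas the circles scatter around 0, and Psme1 and Psme2 are the exception with both symbols far to the right.

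Within the beta ring, the 3 constitutive catalytic subunits were each called in second-batch and not in first-batch libraries. Psmb6, which carries the caspase-like site, ranged from 139 to 248 CPM (median 197) in second-batch DAT;NuTRAP libraries and from 88.5 to 113 CPM (median 103) in second-batch VGAT;NuTRAP libraries, without overlap. In first-batch libraries it ranged from 113 to 159 CPM (median 132) in DAT;NuTRAP and from 118 to 149 CPM (median 124) in VGAT;NuTRAP, with overlap. Its fold change was 0.88 ± 0.06 in the second batch and 0.03 ± 0.07 in the first. Psmb5, the chymotrypsin-like subunit, gave 0.69 ± 0.06 and 0.00 ± 0.07, and Psmb7, the trypsin-like subunit, 0.62 ± 0.07 and 0.12 ± 0.09, in second-batch and first-batch libraries. None of the 3 was called in the first batch (adjusted p from 0.306 to 0.996).

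Among the subunits of the beta ring without a catalytic site, Psmb4 had 236 to 352 CPM (median 321) in second-batch DAT;NuTRAP libraries, against 161 to 196 CPM (median 169) in VGAT;NuTRAP, and 164 to 234 CPM (median 188) against 157 to 172 CPM (median 169) in the first batch. It missed the threshold in first-batch libraries (0.20 ± 0.08, adjusted p = 0.0513). Psmb1 gave 0.99 ± 0.05 in the second and 0.11 ± 0.06 in the first batch, and Psmb3 0.96 ± 0.07 and 0.07 ± 0.09. In the alpha ring, Psma4 had the largest second-batch value (0.96 ± 0.07 and 0.23 ± 0.08), followed by Psma7 (0.76 ± 0.06 and −0.03 ± 0.07) and Psma5 (0.59 ± 0.06 and 0.07 ± 0.07). The exons of Psma3, Psma4, Psma5, Psma6, Psma7, Psmb4 and Psmb7 overlap those of a gene on the other strand, as do those of 13 members outside the core.

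**Figure D3:**
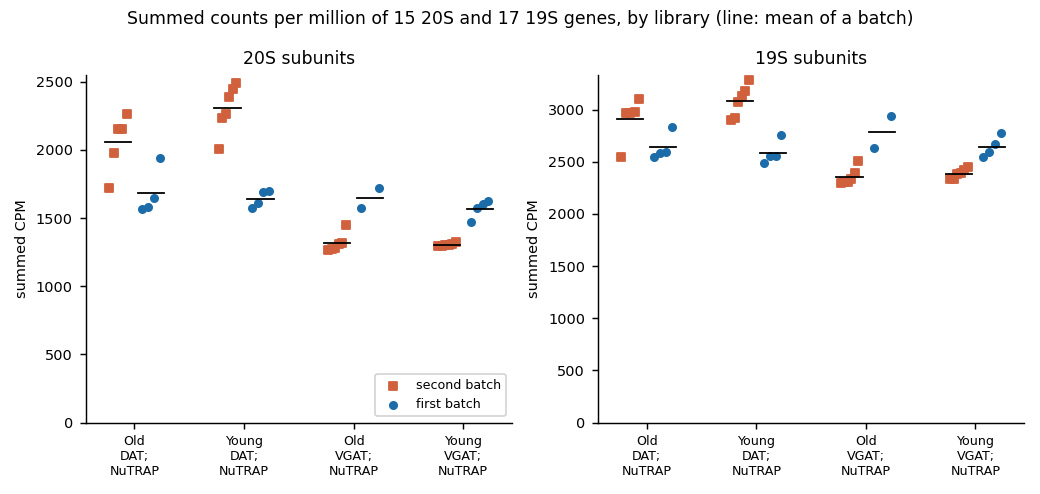
Summed CPM (y axis, from 0) of the 15 genes of the 20S core (left) and the 17 genes of the 19S cap (right) in each library, by model and age, with squares for second-batch and circles for first-batch libraries and a line at the mean of each. The second-batch DAT;NuTRAP libraries lie highest (20S sum 1722 to 2492) and the second-batch VGAT;NuTRAP libraries lowest (1265 to 1453), with both first-batch groups between 1468 and 1942.

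Of the 19S cap, 10 of 17 subunits were called higher and 2 lower over all libraries, with a median of 0.17, against 30.0% and 30.4% of all genes. In second-batch libraries 11 were called higher and 1 lower (median 0.32; 26.4% and 30.3% of all genes), and in first-batch libraries none was called higher and 4 lower (median −0.09, Psmc6, Psmd3, Psmd12 and Psmd14). The 4 lower calls are a share near the 22.4% of all genes called lower there. The difference between batches was called for 12 of 17, all larger in the second batch, against 12.7% of all genes. At gene level, Psmd8 and Psmd13, subunits of the lid, gave 0.75 ± 0.05 and 0.71 ± 0.06 in second-batch libraries and 0.14 ± 0.07 and 0.13 ± 0.07 in first-batch libraries. Psmd4, a ubiquitin receptor, gave 0.69 ± 0.05 and 0.01 ± 0.06, and the ATPases Psmc3 and Psmc5 gave 0.75 ± 0.05 and −0.01 ± 0.07, and 0.50 ± 0.04 and −0.08 ± 0.07.

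The large scaffold subunits of the base were not called over all libraries or within either batch. Psmd2 had 280 to 367 CPM (median 339) in second-batch DAT;NuTRAP libraries and 312 to 332 CPM (median 322) in second-batch VGAT;NuTRAP libraries, and Psmd1 165 to 206 CPM (median 176) against 174 to 206 CPM (median 191). These ranges overlapped, and over all libraries the fold changes were −0.01 ± 0.04 for Psmd2 and −0.05 ± 0.03 for Psmd1. With the length trend taken out both were called higher (Psmd2 0.21, adjusted p = 3.25e-06, and Psmd1 0.18, adjusted p = 1.11e-05). Psmd14, the deubiquitinase of the lid, was not called over all libraries either (−0.04 ± 0.05, adjusted p = 0.501), but was called lower with the length trend taken out (−0.18, adjusted p = 0.00215). Psmc6 was the one cap subunit whose first-batch libraries did not overlap, against 11.3% of all genes in that direction (85.4 to 106 CPM in DAT;NuTRAP, 107 to 125 CPM in VGAT;NuTRAP; −0.22 ± 0.06, adjusted p = 0.00700), while its second-batch libraries overlapped (−0.08 ± 0.06, adjusted p = 0.297), and its call over all libraries was lost in 21 of 54 alternatives. With the trends over coding length and GC content taken out, its direction turned (0.25, adjusted p = 3.09e-05, called higher). Psmd11, the other cap subunit called lower over all libraries (−0.16), lost the call in 4 of 54 alternatives. It stayed called lower with the length trend taken out (−0.19, adjusted p = 0.000794) and with GC content added (−0.15, adjusted p = 0.0102).

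Assembly factors differed among themselves. Psmg4, one of the chaperones that build the alpha ring, had 8.27 to 17.1 CPM (median 10.8) in second-batch DAT;NuTRAP libraries, against 3.64 to 6.04 CPM (median 4.79) in VGAT;NuTRAP, without overlap, and 4.28 to 7.05 CPM (median 6.03) against 3.19 to 8.35 CPM (median 5.26) in the first batch, with overlap. Its fold change was 0.77 ± 0.14 over all libraries (adjusted p = 1.10e-05). Psmd9, a chaperone of the ATPase ring, was called higher over all libraries (0.41 ± 0.07, adjusted p = 1.36e-06), with 0.47 ± 0.08 in the second and 0.21 ± 0.09 in the first batch (adjusted p = 0.0580). Psmd5, another chaperone of that ring, fell in DAT;NuTRAP over all libraries (−0.32 ± 0.07, adjusted p = 6.55e-05), with −0.50 ± 0.08 in the second batch and −0.03 ± 0.06 in the first. Psmg1 and Psmg2 were not called over all libraries. For Psmg1 the direction differed by batch, with overlap in both. Its median was 18.5 CPM in DAT;NuTRAP against 13.5 CPM in VGAT;NuTRAP libraries of the second batch, and 12.5 against 14.4 CPM in the first.

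Coding length moved with these differences. Over 14403 genes with a coding length, the correlation of log2 coding length with the model difference was −0.21 (Pearson) and −0.28 (Spearman), and over the 44 members −0.63 and −0.60, given as descriptions across genes that are not independent. In second-batch libraries genes with fewer than 750 coding bases had a median of 0.42, against 0.76 for the 8 core subunits of that length, and genes with 750 to under 1500 bases a median of 0.10, against 0.69 for the other 7. In first-batch libraries the same medians were 0.08 for genes and 0.05 for core subunits under 750 bases, and 0.02 and 0.01 from 750 to under 1500 bases. With the length trend taken out of the DAT;NuTRAP libraries, an alternative chosen after the data were seen, 11 of 15 core subunits were called higher over all libraries (median 0.28), and Psma1, Psma2, Psma3 and Psma6 lost the call. Of all 14403 genes in that fit, 4537 were called higher and 4401 lower. Outside the core, Psmc4, Psmd6, Psmd10, Psmg3 and Psme4 lost the call, Psmd1, Psmd2 and Psmd3 became called higher, and Psmd14 and Psme3 became called lower. With GC content taken out as well, also chosen after the data were seen, 13 of 15 core subunits were called higher, without Psma6 and Psmb5. Of all 14403 genes, 4292 were then called higher and 4337 lower. Outside the core, Psmc4, Psmg3, Psmg4, Psmd9 and Psme4 then lost the call, Psmd1, Psmd2, Psmd12 and Psmc6 were called higher, and Psme3 was called lower. These trends were fitted to the difference over all libraries and taken out of the DAT;NuTRAP libraries of both batches alike. The length correlation, however, was −0.25 in second-batch and −0.03 in first-batch libraries (Pearson). The p-values with a trend taken out also treat that trend as known. 

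**Figure D4:**
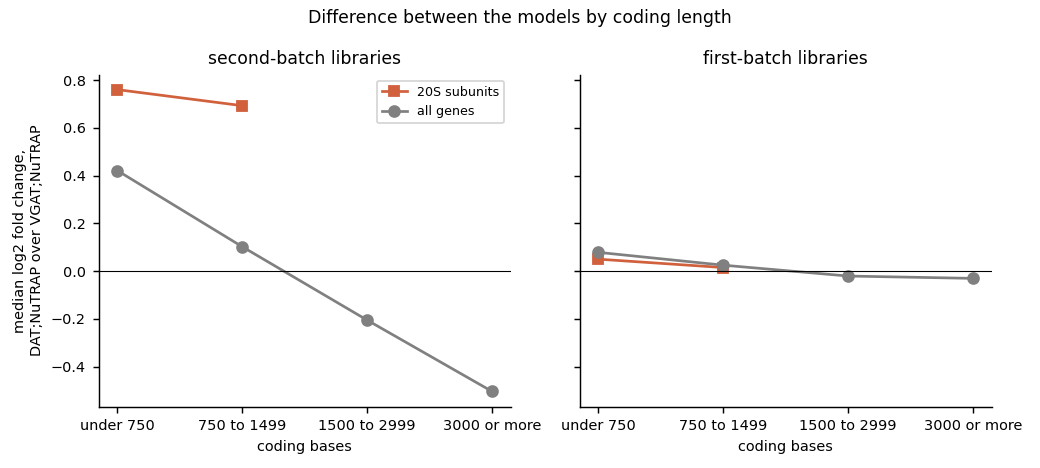
Median log2 fold change of DAT;NuTRAP over VGAT;NuTRAP (y axis) by number of coding bases (x axis, 4 classes) for the 20S subunits (squares) and for all genes tested (circles), in second-batch libraries (left) and first-batch libraries (right). In second-batch libraries the medians of all genes run from 0.42 under 750 bases to −0.50 at 3000 or more, with the core subunits above them at 0.76 and 0.69, and in first-batch libraries all medians lie near 0.

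Genes that work with the proteasome were called in both directions, among 30.0% of all genes called higher and 30.4% lower, and several of these counts are near those shares. Of 12 partners outside the family, 4 were called higher over all libraries, among them Sem1 (0.64 ± 0.08), a small cap subunit, Pomp (0.61 ± 0.08), the maturation factor of the core, and Adrm1 (0.54 ± 0.07), a ubiquitin receptor of the cap. Another 6 were called lower, among them Ublcp1 (−0.53 ± 0.05), a phosphatase acting on the proteasome, and Ecpas (−0.55 ± 0.07), a proteasome adaptor. In the Nfe2l1 route none of 8 was called higher and 3 were lower (Ddi2, −0.52 ± 0.06, the protease that activates Nfe2l1, Ngly1, −0.25 ± 0.09, and Bach1, −0.87 ± 0.17, a repressor at antioxidant elements), and Nfe2l1 itself was at 0.06 ± 0.04 (adjusted p = 0.173). Ubiquitin genes were called higher (4 of 6, among them Rps27a at 0.69 ± 0.10 and Ubb at 0.37 ± 0.05), while Uba6 was lower, and of 10 shuttles and p97 factors 2 were called higher, with Vcp at 0.37 ± 0.04, and 6 lower, with Ubqln1 at −0.34 ± 0.05. By batch, the partners had 4 called higher and 6 lower in second-batch and 1 and 4 in first-batch libraries, and the Nfe2l1 route 1 and 3 in second-batch and 0 and 3 in first-batch libraries. The ubiquitin genes had 4 higher and 2 lower in second-batch and 0 either way in first-batch libraries, and the shuttles and p97 factors 2 and 6 in second-batch and 2 and 1 in first-batch libraries.

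The models were also compared within each age. In old mice 30 members were called (27 higher and 3 lower, against 22.7% and 24.1% of all genes) with a median of 0.28, and in young mice 30 were called (28 higher and 2 lower, against 24.3% and 25.4% of all genes) with a median of 0.34. The change with age did not differ between the models in the test of the difference: 0 of 44 members were called, 0 had an unadjusted p below 0.05 (2.76% of all genes did), and DESeq2 and limma-voom called 0. The smallest p was that of Psmd9 (−0.27 ± 0.14, unadjusted p = 0.0570 and adjusted p = 1.00 in edgeR).

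Second, old mice were compared with young mice within each model, to ask whether proteasome mRNA declines with age. In DAT;NuTRAP mice 0 of 44 members were called in edgeR, and DESeq2 and limma-voom called 0 too. Of all 14889 genes tested, 1 was called (0.00672%). Below 0 lay 31 of 44 members, with a median of −0.05, while 50.7% of all genes lay above 0 (median 0.00), and 4 had an unadjusted p below 0.05, all lower, against 5.28% of all genes. The fold changes ranged from −0.22 in Psmd9 to 0.09 in Psmb3, and for 43 of 44 members the 95% interval lay within 0.5 on the log2 scale on either side of 0, the exception being Psmg4.

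The smallest p in DAT;NuTRAP mice belonged to Psma2, a subunit of the alpha ring. It had 139 to 176 CPM (median 159) in old and 162 to 210 CPM (median 172) in young libraries, which overlapped, with a fold change of −0.16 ± 0.06 (unadjusted p = 0.00900, adjusted p = 0.884). Psma3 gave −0.15 ± 0.06, with 106 to 154 CPM (median 126) in old and 120 to 167 CPM (median 139) in young libraries, and Psmd9 −0.22 ± 0.10, with 31.5 to 41.6 CPM (median 35.9) in old and 34.4 to 61.0 CPM (median 39.8) in young libraries. All 7 alpha subunits lay below 0 (−0.16 to −0.04). By batch, 0 of 7 lay above 0 in second-batch (median −0.15) and 2 of 7 in first-batch libraries (median −0.04). Of the 8 beta subunits, 1 and 7 lay above 0 in the same batches. Within batches the median over all members was −0.10 in second-batch and 0.03 in first-batch libraries, and the summed 20S level averaged 2055 CPM in old and 2306 CPM in young second-batch libraries, against 1685 CPM in old and 1643 CPM in young first-batch libraries. Among members above 0 the smallest p were those of Psmd13 (0.09), Psmb3 (0.09) and Psmf1 (0.08), none called.

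**Figure D5:**
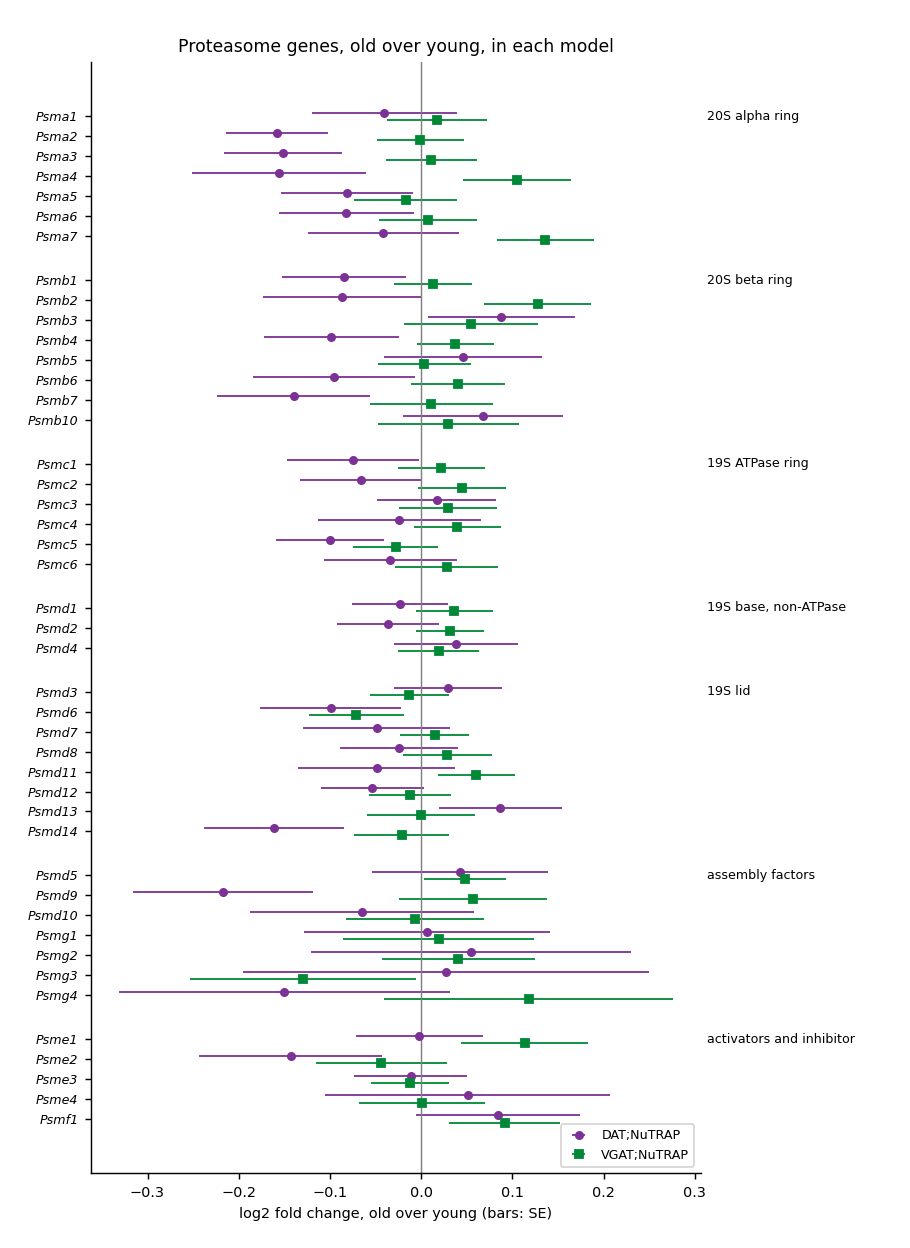
Log2 fold change of old over young mice (x axis, bars 1 SE) for all 44 members, ordered by role, with circles for DAT;NuTRAP and squares for VGAT;NuTRAP mice. All values lie between −0.22 and 0.14, none is called, and the 7 alpha subunits lie left of 0 in DAT;NuTRAP mice.

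In VGAT;NuTRAP mice 0 of 44 members were called in edgeR, DESeq2 or limma-voom, while 4 of 15607 genes were (0.0256%). Above 0 lay 32 of 44 members, with a median of 0.02, while 49.5% of all genes did (median −0.00). Within batches 21 of 44 lay above 0 in second-batch libraries (6 old and 6 young, median −0.00). In first-batch libraries, with 2 old mice (of 21 and 24 months) and 4 young, 32 of 44 did (median 0.05). Without a batch term the median was −0.00. Over all libraries 2 members had an unadjusted p below 0.05, against 5.98% of all genes. These were Psma7, with 81.0 to 133 CPM (median 89.4) in old and 81.5 to 116 CPM (median 89.9) in young libraries (0.14 ± 0.05, unadjusted p = 0.0172, adjusted p = 0.784), and Psmb2, a structural subunit of the beta ring, with 36.6 to 54.0 CPM (median 43.6) and 38.1 to 48.9 CPM (median 39.6; 0.13 ± 0.06, adjusted p = 0.826). The old and young libraries overlapped for both. Psmd6 (−0.07), Psmg3 (−0.13) and Psme2 (−0.04) had the smallest p on the lower side. Psma4 had the next smallest p above 0. For all 44 members the 95% interval lay within 0.5 on either side of 0.

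Over all libraries no glial or endothelial marker was called with age in either model, but most lay above 0. In DAT;NuTRAP mice all 15 astrocyte markers lay above 0 in old against young mice (median 0.47, 8 with an unadjusted p below 0.05, none called; summed 1300 ± 480 CPM in old and 1021 ± 284 CPM in young libraries, SD), and 13 of 14 tested microglia markers did (median 0.70). In VGAT;NuTRAP mice 14 of 15 astrocyte markers (median 0.29) and 12 of 15 microglia markers (median 0.37) lay above 0. Oligodendrocyte markers lay above 0 for 12 of 12 in DAT;NuTRAP (median 0.27) and 11 of 12 in VGAT;NuTRAP (median 0.35), and endothelial markers for 10 of 10 (median 0.38) and 6 of 10 (median 0.13). Of the astrocyte markers, 1 was called higher within second-batch DAT;NuTRAP libraries. Dopamine neuron markers in VGAT;NuTRAP mice lay above 0 for 11 of 11 within second-batch libraries (median 0.38, 1 called higher). Within first-batch libraries 1 of 11 did (median −0.24). In DAT;NuTRAP mice 2 of 11 (median −0.06) and 8 of 11 (median 0.12) did in the same batches. The part of any of these cells in the age values of the members was not tested.

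Split by sex, edgeR and DESeq2 each called 0 members with age in females or males of either model, and 0 in the test of the difference between sexes. In VGAT;NuTRAP males 38 of 44 members lay above 0 (49.7% of all genes; median 0.08), with Psmb2 at 0.28 ± 0.08 (unadjusted p = 0.00255, adjusted p = 0.395), and in VGAT;NuTRAP females 19 of 44 did (48.6% of all genes; median −0.01). The VGAT;NuTRAP males were 3 old and 4 young mice. In the fit of both sexes with each library left out, the member median (0.0026) and Psmb2 (0.0905) were lowest without the same old first-batch male. In DAT;NuTRAP mice the medians were −0.08 in females and −0.04 in males. At an unadjusted p below 0.05 stood 3 members in DAT;NuTRAP females (6.11% of all genes), 0 in DAT;NuTRAP males (3.47%), 0 in VGAT;NuTRAP females (3.44%) and 3 in VGAT;NuTRAP males (7.77%). The test of the difference had 2 such members in DAT;NuTRAP (3.77% of all genes; Psmd7 and Psmd5) and 3 in VGAT;NuTRAP (5.11%; Psma5, Psmd12 and Psmb2).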

How the data were processed

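RNA bound to GFP-tagged ribosomes was sequenced from 37 mice, 1 library each. Reads had been mapped by the authors to mm39 (STAR, version 2.7.10b), who deposited raw counts per gene from featureCounts, whose strand setting is not given in the sources used here. The libraries were made with a directional kit. The deposited counts went unchanged into edgeR (version 4.0.16, R version 4.3.3; scaling by TMM, filterByExpr with a minimum count of 10, robust quasi-likelihood fit, batch as a term; SE taken as the fold change over the root of F). P-values were adjusted over all genes tested, and the fit of the models used all 37 libraries. The tests were first tried on simulated counts. Members, roles and gene lists were chosen with earlier results of these data known. The genes named were up to 6 members per direction with the largest called difference between the models, the 3 per direction with the smallest p for age, the catalytic subunits, 2 per role and up to 4 per other list. Others are named where they fell outside this rule, after their values were seen, such as Psmd2, Psme3, Psmg1, Psmg2, Psmd3, Psmd12 and Psmd14. Alternatives were RLE, upper-quartile and plain library-size scaling, other filters, DESeq2 1.42.0, limma-voom (limma 3.58.1), other batch terms, single batches, a replicate block and each library left out. Positions are those of GRCm39. All 70 pairs of libraries within a condition differed by more than counting noise (lowest chi-square per degree of freedom 5.22). Levels were not set against each other between members, since annotated lengths differ up to 5.19-fold between merged exons and the canonical transcript.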

Additional observations from a re-analysis of the deposited data

Results flagged for a closer look

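Of 140 sets of values tested, covering the named genes and the summed levels in 4 conditions, 7 held a library far from the rest of its condition, and chance flags about 1 in 20. Psmg3 stood at 15.5 CPM in 1 old DAT;NuTRAP male of the second batch, where the other 8 libraries had 5.85 to 9.39 CPM. Psmd13 stood at 142 CPM in 1 old DAT;NuTRAP female of the second batch (the others 94.4 to 118 CPM). A single young DAT;NuTRAP female of the second batch was high for Psmd9 (61.0 CPM, the others 34.4 to 46.1 CPM) and low for Psmf1 (31.9 CPM, the others 43.7 to 53.6 CPM). A single young VGAT;NuTRAP male of the first batch was high for Psmc3 (184 CPM, the others 142 to 160.0 CPM) and for Psme2 (29.8 CPM, the others 20.8 to 25.03 CPM). Psmd14 stood at 111 CPM in 1 young VGAT;NuTRAP female of the first batch, with the others at 80.1 to 94.7 CPM.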

How the results depend on the processing

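Normalization, filters, DESeq2, limma-voom and single mice left the number of members called between the models within 1.5 times 36, and single batches did not all do so. In first-batch libraries alone 9 members were called between the models (6 in young and 4 in old mice), with a member median of −0.0032, against 36, 30 and 30 over all libraries, and 1 core subunit was called higher, with a core median of 0.0283. There Psmb10 was at −0.0298, Psmc3 at −0.0072 and Psmc5 at −0.0761. In second-batch libraries alone the member median was 0.4639 and the core median 0.7593. A batch term for each model, whose contrast is by construction the difference in first-batch libraries, gave 5 (7 in young, 3 in old mice), a member median of 0.0121, 1 core subunit, a core median of 0.0666 and Psmc5 at −0.0466. Averaged over both batches, a choice made after the data were seen, it gave 34 members, 14 core subunits and a core median of 0.40. An offset for coding length, also chosen then, gave a member median of 0.1932, a core median of 0.2812 and Psmd1 at 0.18. With GC content added, Psmd1 was at 0.26 and Psmc6 at 0.25. Upper quartile factors put Psmd1 at 0.0301.

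Of the genes named for age, none called, Psmd9 in DAT;NuTRAP was at 0.0158 and Psma4 in VGAT;NuTRAP at −0.1311 in first-batch libraries, and Psme2 in VGAT;NuTRAP was at 0.0209 without mice of other ages. With each library left out in turn it ranged from −0.0704 to 0.0036, the highest without 1 old VGAT;NuTRAP female. The age-by-model value of Psmg3 was at −0.0357 in second-batch libraries. All genes called for age numbered 12 with DESeq2 in DAT;NuTRAP, against 1, and 23 in VGAT;NuTRAP, against 4, with 52 in second-batch libraries.

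Leaving out each library gave 33 to 36 members called between the models (30 to 32 in young, 25 to 32 in old mice), 14 or 15 core subunits, a member median of 0.2847 to 0.3577 and a core median of 0.4483 to 0.5311. For age it gave 0 members each time, with medians of −0.0684 to −0.0153 in DAT;NuTRAP and 0.0026 to 0.0321 in VGAT;NuTRAP. The replicate block gave 30 members called between the models (29 in young, 20 in old mice), 14 core subunits and 0 members for age. Same-numbered libraries deviated together in 6 of 9 pairs in DAT;NuTRAP and 5 of 8 in VGAT;NuTRAP (r over 0.1), and in 1 and 0 once batch was removed, so the numbers were not taken as pairs.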
